A study of Mus musculus with 12 samples.

Results

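The genes described here are 9 growth regulators: the Myc family genes Myc, Mycn and Mycl, their partner Max, the antagonists Mxd1 and Mxd4, and the kinase genes Pim1, Pim2 and Pim3. They were chosen by gene symbol, and all 9 were found among the 24310 features of every library. RNA was sequenced from 12 spleen samples of C57BL/6 mice engrafted with CMM cells, a GFP-marked mouse acute myeloid leukaemia with inv(16). Every mouse carried this leukaemia and was treated once about 1% of blood cells were GFP positive, with 3 intravenous injections on alternate days. The agents were CpG-STAT3dODN, a TLR9 ligand joined to a STAT3 decoy DNA, CpG-scrODN, the same kind of conjugate with a scrambled sequence, or PBS alone. Spleen cells collected 1 day after the final injection were enriched for c-Kit, so host spleen cells that pass the enrichment can be present. The series design text speaks of sorted GFP positive, c-Kit positive cells, a sort that the extraction protocol does not list. Age and sex of the mice were not among the labels, and nothing says that 1 library stands for 1 mouse.

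Each labelled group had 4 libraries, but the column headers of all 12 files name another group than the label. The header word was SCR for the 4 libraries with the label CpG-STAT3dODN, PBS for the 4 with the label CpG-scrODN and DEC for the 4 with the label PBS. Groups are called by label throughout, each difference is one between labelled groups, and none is assigned to a treatment.

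Myc proteins are transcription factors that bind DNA together with Max at the E-box and drive genes of ribosome production, metabolism and the cell cycle. Mxd proteins take the place of Myc on Max and repress many of the same genes, and their levels often rise as myeloid cells differentiate. Pim kinases are serine/threonine kinases whose activity depends largely on how much protein is made. They favour translation and survival, cooperate with Myc in mouse lymphoma, and are transcribed in response to cytokines through STAT factors. Myc and Pim1 are both known STAT3 target genes, which is why they bear on a study of STAT3 inhibition and TLR9 stimulation.

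The promoters show which of these genes carry the DNA words that Myc with Max, or STAT factors, are known to read. RefSeq promoter windows of GRCm38.p6, from 250 bases before to 50 bases after a start, were matched for 8 of the 9 genes, with 2 windows for Pim1 and none matched for Myc. The E-box CACGTG, which reads the same on both strands, was found in 3 of the 9 windows, against 7.15% of all 32851 windows. The STAT word TTCNNNGAA, also its own reverse complement, was in 0 of the 9 windows, against 8.30% of all windows. The 9 windows held 49.0% to 81.3% G and C bases, against a median of 52.7% over all windows. The part of base composition in these counts was not tested. The 3 windows with an E-box and that of Pim2, the most variable of the tested genes, are printed 5′ to 3′ on the gene's strand with the E-box in capitals. The matches are descriptions of sequence; binding was not measured.
Max, chr12:76962199-76962498, minus strand, E-box from base -3: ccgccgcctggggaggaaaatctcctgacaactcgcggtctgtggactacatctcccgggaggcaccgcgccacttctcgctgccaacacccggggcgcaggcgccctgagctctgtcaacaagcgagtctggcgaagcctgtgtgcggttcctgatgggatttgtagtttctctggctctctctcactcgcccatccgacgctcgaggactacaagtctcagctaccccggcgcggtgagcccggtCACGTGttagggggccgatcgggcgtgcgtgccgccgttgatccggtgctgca
Mxd4, chr5:34187661-34187960, minus strand, E-box from base -219: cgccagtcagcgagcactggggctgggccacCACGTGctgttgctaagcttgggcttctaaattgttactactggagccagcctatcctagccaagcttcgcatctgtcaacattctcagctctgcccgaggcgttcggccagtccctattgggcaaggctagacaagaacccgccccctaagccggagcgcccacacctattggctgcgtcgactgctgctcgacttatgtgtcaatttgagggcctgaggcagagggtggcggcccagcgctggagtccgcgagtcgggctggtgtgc
Pim1, downstream start, chr17:29492835-29493134, plus strand, E-box from base -58: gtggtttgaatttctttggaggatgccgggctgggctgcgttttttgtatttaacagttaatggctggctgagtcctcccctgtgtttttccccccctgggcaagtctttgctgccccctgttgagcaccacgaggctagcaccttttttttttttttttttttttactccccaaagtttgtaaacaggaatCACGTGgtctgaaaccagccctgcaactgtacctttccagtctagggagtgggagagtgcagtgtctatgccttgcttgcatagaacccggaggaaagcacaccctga
Pim2, chrX:7878056-7878355, plus strand, no E-box: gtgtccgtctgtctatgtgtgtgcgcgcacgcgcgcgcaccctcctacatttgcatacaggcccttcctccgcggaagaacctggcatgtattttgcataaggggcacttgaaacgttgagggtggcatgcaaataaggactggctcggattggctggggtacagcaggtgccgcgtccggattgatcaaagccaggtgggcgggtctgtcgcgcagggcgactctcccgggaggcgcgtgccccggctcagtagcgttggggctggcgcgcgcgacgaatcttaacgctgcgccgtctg

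Levels are RPKM, read counts scaled by transcript length and library size, so they can be compared between genes. Estimated depth was 31430000 to 36010000 reads per library. Kit, the receptor used for enrichment, was at 25.7 to 51.1 RPKM in the CpG-STAT3dODN-labelled libraries, 28.3 to 40.5 in the CpG-scrODN-labelled ones and 10.5 to 37.8 in the PBS-labelled ones. The summed level of 16 B-cell markers was 52.5 to 150.9 RPKM in the CpG-STAT3dODN-labelled libraries, 28.2 to 51.3 in the CpG-scrODN-labelled ones and 265 to 886 in the PBS-labelled ones, and none of the 16 was at 0 in a whole group. Fos, an immediate-early transcription factor, was at 5.91 and 12.9 RPKM in replicate 4 labelled CpG-STAT3dODN and replicate 4 labelled PBS, against 486 to 1156 RPKM in the other 10 libraries; these 2 are called the low-Fos pair. Hspa1a, a heat shock gene, was at 2.60, 2.38 and 1.87 RPKM in the replicates numbered 4 labelled CpG-STAT3dODN, CpG-scrODN and PBS, against 31.6 to 520.5 RPKM in the other 9 libraries. In this gene the 3 libraries numbered 4 stood apart across groups, while Fos was at 1038 RPKM in replicate 4 labelled CpG-scrODN. Without those 3, limma also called 0 of the 7 tested genes in each comparison. Stat3 itself was at 34.3 to 50.3 RPKM in the CpG-STAT3dODN-labelled libraries, 43.0 to 46.8 in the CpG-scrODN-labelled ones and 37.5 to 51.1 in the PBS-labelled ones, groups that overlapped. In such bulk samples, fewer cells of a type and less RNA per cell cannot be told apart.

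The kinase gene Pim1 was the most abundant of the 9 in 11 of 12 libraries, and Myc was first in the remaining one, replicate 2 labelled PBS. Mycl was eighth and Mycn ninth in all 12 libraries. The 7 other genes had at least 1 RPKM in every library. They are the ones that passed the filter for testing, which required 1 RPKM or more in 4 or more libraries. By the mean over libraries, Pim1 ranked 411th and Myc 839th among all 24310 features.

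**Figure D1:**
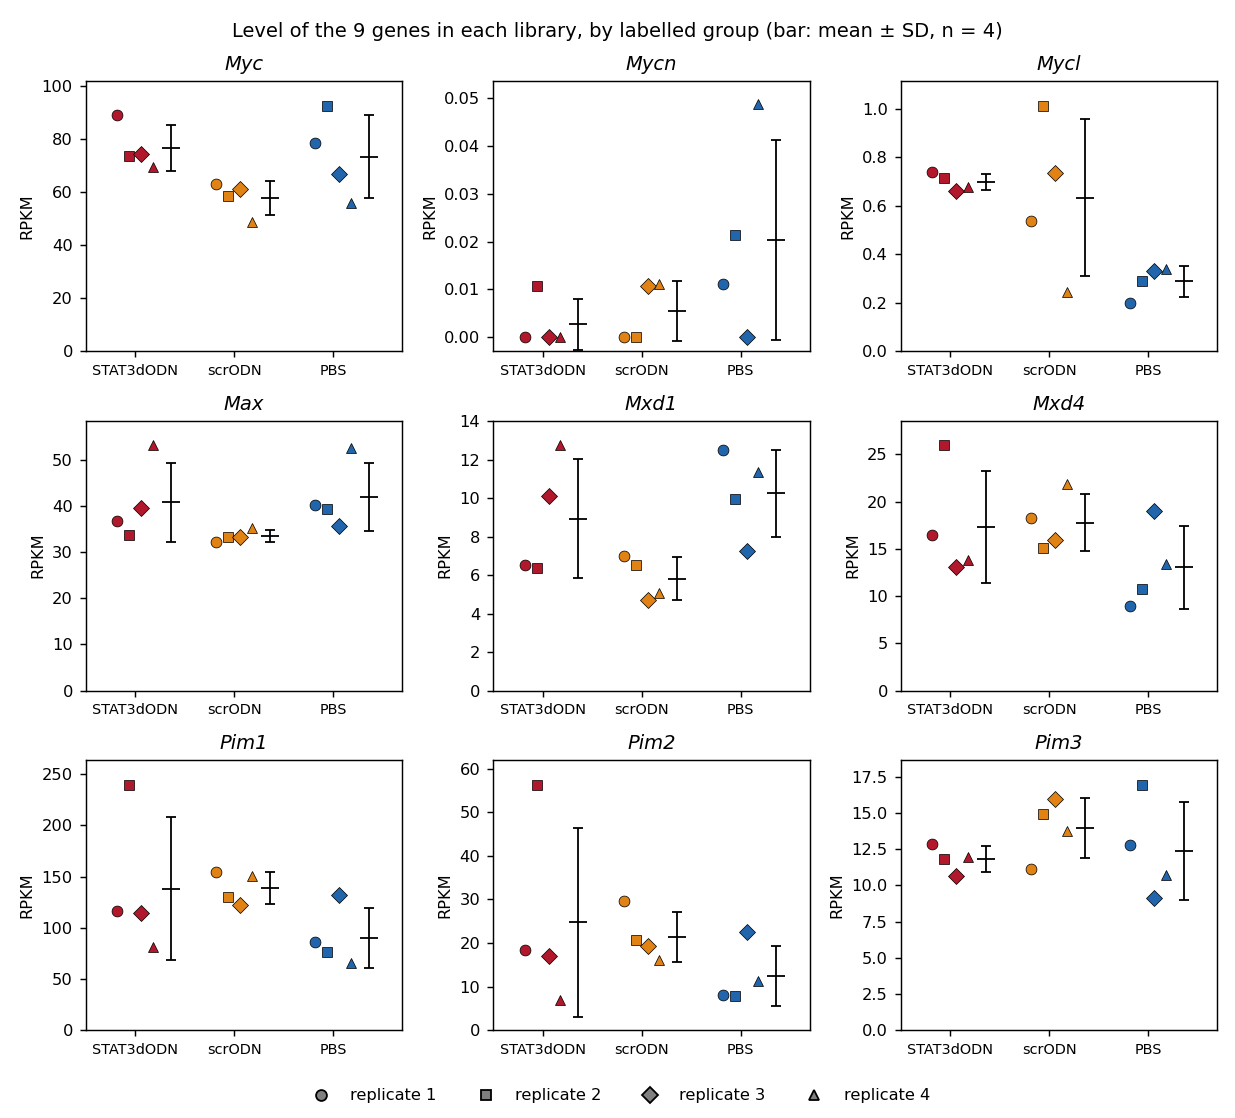
RPKM of each of the 9 genes (y axes, linear, a separate scale per gene) in the 12 libraries by labelled group (x axis), with the replicate number as the symbol and the mean ± SD of 4 libraries as the bar. Myc in the CpG-STAT3dODN-labelled libraries, at 69.5 to 89.2, lies above all 4 labelled CpG-scrODN, at 48.7 to 63.1, while Pim1 and Pim2 spread widest where replicate 2 labelled CpG-STAT3dODN reaches 239.8 and 56.3.

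Myc (chromosome 15, 61985341 to 61990361, GRCm38.p6, as all positions here) is the main driver of the network. It was at 89.2, 73.7, 74.2 and 69.5 RPKM in the CpG-STAT3dODN-labelled libraries, at 63.1, 58.6, 61.2 and 48.7 in the CpG-scrODN-labelled ones, and at 78.5, 92.7, 66.9 and 55.7 in the PBS-labelled ones. All 4 CpG-STAT3dODN-labelled libraries were above all 4 labelled CpG-scrODN, and the PBS-labelled libraries overlapped both groups. The means were 76.7 ± 8.62, 57.9 ± 6.39 and 73.4 ± 15.8 RPKM in the CpG-STAT3dODN-labelled, CpG-scrODN-labelled and PBS-labelled libraries (SD, n = 4 each). Against CpG-scrODN, the Myc level labelled CpG-STAT3dODN differed by 0.40 ± 0.15 on the log2(RPKM + 1) scale (SE, 95% interval 0.08 to 0.72), 1.32-fold on that scale. The unadjusted limma p was 0.0191 and the p adjusted over all 10886 genes was 0.960, so the gene did not pass. Groups did not overlap in either direction for 4.25% of all genes tested in this comparison. Against PBS, the difference was 0.08 (95% interval -0.24 to 0.40, limma adjusted p = 0.9998) for the CpG-STAT3dODN-labelled libraries. For the CpG-scrODN-labelled ones it was -0.32 (95% interval -0.64 to 0.00166, limma adjusted p = 0.323).

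Mycn (chromosome 12, 12936093 to 12941836), the family member known from neural tissue and stem cells, was close to absent. It was listed at 0 in 3 of the 4 CpG-STAT3dODN-labelled libraries and at 0.0106 RPKM in the other, at 0, 0, 0.0107 and 0.0111 in the CpG-scrODN-labelled ones, and at 0.0111, 0.0214, 0 and 0.0488 in the PBS-labelled ones. These steps amount to 0, 1, 2 or 4 reads per library, too few for any comparison. Mycl (chromosome 4, 122995588 to 123002490), the member prominent in dendritic cells, was at 0.738, 0.713, 0.661 and 0.679 RPKM in the CpG-STAT3dODN-labelled libraries. It was at 0.538, 1.01, 0.736 and 0.244 in the CpG-scrODN-labelled ones and at 0.197, 0.288, 0.330 and 0.337 in the PBS-labelled ones. The 4 CpG-STAT3dODN-labelled libraries were all above the PBS-labelled ones, and the CpG-scrODN-labelled libraries overlapped both groups. In that comparison 5.04% of all genes tested had groups that did not overlap, a share that leaves out Mycl and other genes that failed the filter. These levels rest on about 22.6 to 25.7 reads per kilobase in the CpG-STAT3dODN-labelled libraries, 8.44 to 35.7 in the CpG-scrODN-labelled ones and 6.78 to 11.1 in the PBS-labelled ones. In a fit without the filter on low values, Mycl differed by 0.40 ± 0.12 (SE) between the CpG-STAT3dODN-labelled and PBS-labelled libraries, with a limma adjusted p of 0.179. The dendritic marker list, measured in 10 of 10 genes with none at 0 in a whole group, had a summed level of 7.14 to 32.0 RPKM in the CpG-STAT3dODN-labelled libraries, 4.63 to 8.29 in the CpG-scrODN-labelled ones and 30.7 to 123 in the PBS-labelled ones, and its part in the Mycl values was not tested. Myc made up 98.3% to 99.7% of the summed RPKM of the 3 Myc genes.

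Max (chromosome 12, 76937269 to 76962323) is the shared partner that both Myc and Mxd proteins need to bind DNA. Its level was 36.8, 33.7, 39.5 and 53.2 RPKM in the CpG-STAT3dODN-labelled libraries, 32.2, 33.3, 33.3 and 35.2 in the CpG-scrODN-labelled ones, and 40.1, 39.3, 35.6 and 52.6 in the PBS-labelled ones. The CpG-scrODN-labelled libraries all lay below the PBS-labelled ones, and the highest values in the other groups were the pair of low-Fos libraries. The difference between the CpG-scrODN-labelled and PBS-labelled libraries was -0.30 ± 0.14 (SE, limma adjusted p = 0.339), and -0.19 without the pair (limma adjusted p = 0.176). In that comparison 13.9% of all genes had groups that did not overlap. The difference was -0.04 between the CpG-STAT3dODN-labelled and PBS-labelled libraries and 0.26 between the CpG-STAT3dODN-labelled and CpG-scrODN-labelled ones, with limma adjusted p of 0.9998 and 0.960.

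Mxd1 (chromosome 6, 86647044 to 86669234), a repressor that rises in maturing myeloid cells, gave the smallest unadjusted p of the tested genes. It was at 6.51, 6.35, 10.1 and 12.7 RPKM in the CpG-STAT3dODN-labelled libraries, 6.99, 6.54, 4.69 and 5.06 in the CpG-scrODN-labelled ones, and 12.5, 9.93, 7.25 and 11.35 in the PBS-labelled ones. All 4 CpG-scrODN-labelled libraries were below all 4 labelled PBS, and of the CpG-STAT3dODN-labelled ones a pair lay among the CpG-scrODN values, 1 among the PBS values and 1 above them. The difference between the CpG-scrODN-labelled and PBS-labelled libraries was -0.71 ± 0.22 (SE, 95% interval -1.19 to -0.23, 0.610-fold on the log2(RPKM + 1) scale). Its limma p was 0.00711 unadjusted and 0.115 adjusted over all genes, and the adjusted p ran from 0.0507 to 0.297 when single libraries were left out. Between the CpG-STAT3dODN-labelled and CpG-scrODN-labelled libraries the difference was 0.51 ± 0.22 (SE), with limma p of 0.0402 unadjusted and 0.960 adjusted.

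Myeloid marker levels are given beside Mxd1. None of the 10 neutrophil markers tested was called in any of the 3 comparisons. All 10 differences were negative between the CpG-scrODN-labelled and PBS-labelled libraries, with a median of -1.05, where 59.9% of all genes were negative. Against PBS, 8 of the 10 were negative in the CpG-STAT3dODN-labelled libraries, where 53.7% of all genes were. All 10 were positive between the CpG-STAT3dODN-labelled and CpG-scrODN-labelled ones, where 40.0% of all genes were negative. Mpo, the myeloperoxidase of primary granules, was at 29.6 to 84.0 RPKM in the CpG-STAT3dODN-labelled libraries, 17.2 to 30.0 in the CpG-scrODN-labelled ones and 91.6 to 119 in the PBS-labelled ones; it was singled out after its values were seen. The summed neutrophil markers, 10 of 11 in the files and none at 0 in a whole group, were at 1866 to 4184, 531 to 2218 and 1725 to 5187 RPKM in the CpG-STAT3dODN-labelled, CpG-scrODN-labelled and PBS-labelled libraries, and these ranges overlapped. Of 11 monocyte and macrophage markers 9 were tested, and all 9 differences from PBS were negative for each label. Of these, 2 were called lower for the CpG-scrODN-labelled libraries, where 4.15% of all genes were called, and 0 for the CpG-STAT3dODN-labelled ones. Between the CpG-STAT3dODN-labelled and CpG-scrODN-labelled libraries 6 were positive and 3 negative, with 0 called. The part of these myeloid markers in the Mxd1 values was not tested.

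Mxd4 (chromosome 5, 34176580 to 34187710), another repressor of the same family, was at 16.4, 26.0, 13.1 and 13.8 RPKM in the CpG-STAT3dODN-labelled libraries, 18.2, 15.1, 15.9 and 21.9 in the CpG-scrODN-labelled ones, and 8.98, 10.7, 19.0 and 13.4 in the PBS-labelled ones. All 3 groups overlapped. Against PBS, Mxd4 differed by 0.39 ± 0.24 in the CpG-STAT3dODN-labelled libraries and by 0.46 ± 0.24 in the CpG-scrODN-labelled ones (SE, limma adjusted p = 0.791 and 0.393). Those 2 comparisons share the PBS libraries. Mxd4 exceeded Mxd1 in 11 of 12 libraries, and the ratio of their RPKM ran from 1.08 to 4.09 in the CpG-STAT3dODN-labelled libraries, from 2.31 to 4.33 in the CpG-scrODN-labelled ones and from 0.719 to 2.63 in the PBS-labelled ones.

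**Figure D2:**
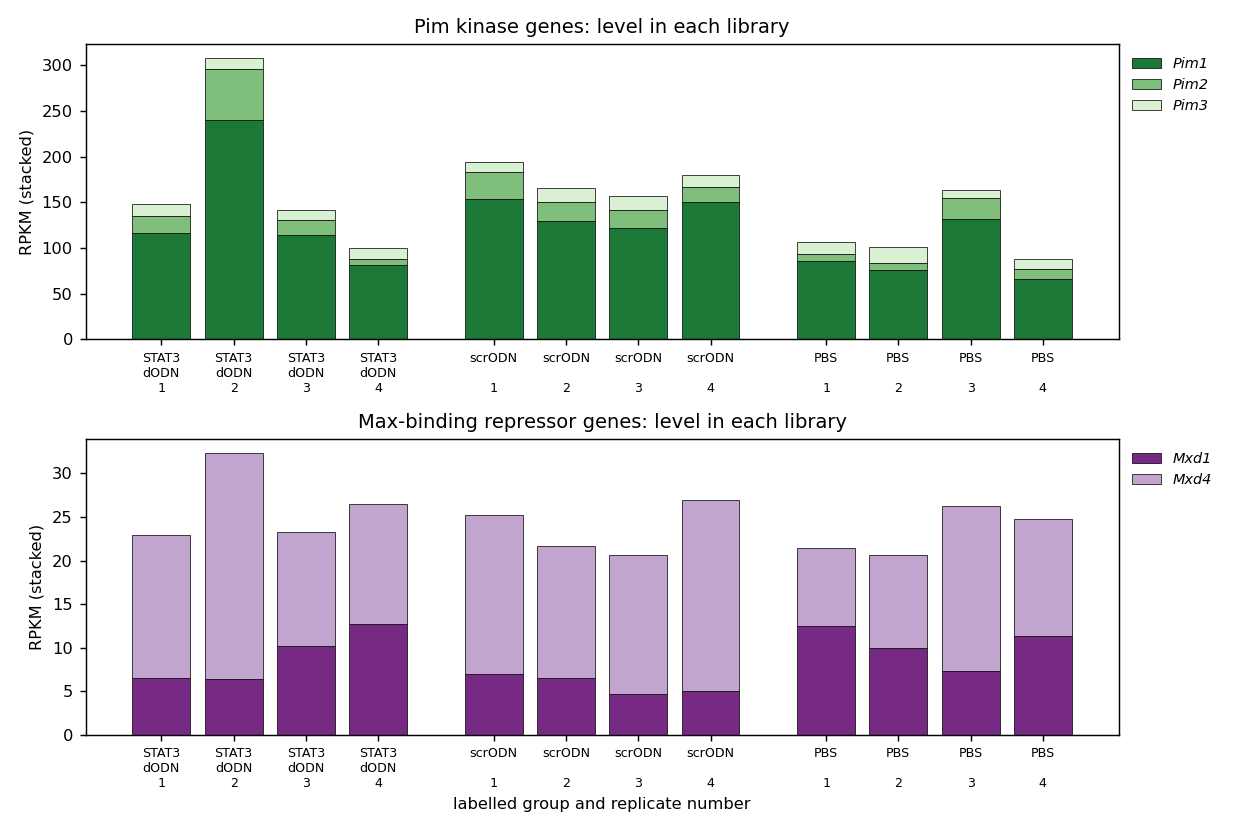
RPKM stacked per library (y axes, linear from 0) for Pim1, Pim2 and Pim3 above and for Mxd1 and Mxd4 below, in the 12 libraries ordered by labelled group (x axis). Pim1 is the largest block of every Pim bar, and Mxd1 is the larger Mxd block in replicate 1 labelled PBS alone, where the ratio of Mxd4 to Mxd1 is 0.719.

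Pim1 (chromosome 17, 29490785 to 29496111), the founding Pim kinase gene and a cytokine-induced one, was at 117, 239.8, 114 and 81.1 RPKM in the CpG-STAT3dODN-labelled libraries. It was at 154, 129.6, 122 and 150.6 in the CpG-scrODN-labelled ones and at 85.8, 76.1, 132 and 65.6 in the PBS-labelled ones. Replicate 2 labelled CpG-STAT3dODN stood highest of the 12 libraries, replicate 3 labelled PBS was highest in its group, and all 3 groups overlapped. The means were 138 ± 69.8, 139 ± 15.6 and 89.9 ± 29.3 RPKM in the CpG-STAT3dODN-labelled, CpG-scrODN-labelled and PBS-labelled libraries (SD, n = 4 each). The difference from PBS was 0.54 ± 0.29 for the CpG-STAT3dODN-labelled libraries (SE, 95% interval -0.09 to 1.18, limma adjusted p = 0.683). It was 0.67 ± 0.29 for the CpG-scrODN-labelled ones (SE, 95% interval 0.03 to 1.305), with limma p of 0.0410 unadjusted and 0.291 adjusted. Neither passed.

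Pim2 (chromosome X, 7878306 to 7883432), a kinase that sustains survival of blood cells, varied most over the 12 libraries, with an SD of 0.82 on the log2 scale. It was at 18.4, 56.3, 17.1 and 7.02 RPKM in the CpG-STAT3dODN-labelled libraries, 29.5, 20.7, 19.2 and 16.0 in the CpG-scrODN-labelled ones, and 7.97, 7.75, 22.4 and 11.3 in the PBS-labelled ones. The groups overlapped, and the highest and the lowest of all 12 values were both in libraries labelled CpG-STAT3dODN. The difference from PBS was 0.71 ± 0.50 for the CpG-STAT3dODN-labelled libraries and 0.83 ± 0.50 for the CpG-scrODN-labelled ones (SE, limma adjusted p = 0.870 and 0.454). Pim3 (chromosome 15, 88862194 to 88865726), the third kinase of the family, was steadier, with an SD of 0.24 on the log2 scale. Its levels were 12.8, 11.8, 10.6 and 11.96 RPKM in the CpG-STAT3dODN-labelled libraries, 11.1, 14.9, 16.0 and 13.7 in the CpG-scrODN-labelled ones, and 12.8, 16.9, 9.14 and 10.7 in the PBS-labelled ones. All groups overlapped, and its differences of -0.03, 0.18 and -0.21 had limma adjusted p of 0.9998, 0.619 and 0.960, for CpG-STAT3dODN against PBS, CpG-scrODN against PBS and CpG-STAT3dODN against CpG-scrODN. Pim1 made up 74.9% to 83.5% of the summed Pim RPKM.

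The progenitor list held 11 genes, all tested, and none was at 0 in a whole group. Its summed level was 278 to 457 RPKM in the CpG-STAT3dODN-labelled libraries, 201 to 279 in the CpG-scrODN-labelled ones and 465 to 593 in the PBS-labelled ones. Against PBS, 1 gene fell and 0 rose in the CpG-STAT3dODN-labelled libraries, namely Ptprc, the common leukocyte antigen gene, at -1.85. It is not limited to progenitors. The B-cell markers given above were also lower than in the PBS-labelled libraries for both labels, and their part in the Ptprc values was not tested. In the CpG-scrODN-labelled libraries 6 fell and 0 rose against PBS, the 6 being Ptprc, Mpo, Elane, Prtn3, Ctsg and Ms4a3. Over all genes 1.86% and 4.15% were called in these comparisons. The list medians were -0.89 and -1.48, with 8 of the 11 differences negative in each comparison. Over all genes 53.7% and 59.9% were negative, and the PBS libraries are shared. Kit and Cd34 were 2 of the 3 genes with positive differences in both, and neither passed. Kit was at 27.6, 51.1, 25.7 and 37.4 RPKM in the CpG-STAT3dODN-labelled libraries, 31.3, 28.7, 28.3 and 40.5 in the CpG-scrODN-labelled ones, and 10.5, 12.8, 37.8 and 22.9 in the PBS-labelled ones. Cd34, a progenitor surface marker, was at 23.0, 43.1, 22.0 and 8.70 RPKM in the CpG-STAT3dODN-labelled libraries, 38.0, 25.4, 27.6 and 24.5 in the CpG-scrODN-labelled ones, and 6.53, 14.5, 33.8 and 5.15 in the PBS-labelled ones. Pim1, Pim2, Mxd4, Kit and Cd34 were all highest of their group in replicate 2 labelled CpG-STAT3dODN and in replicate 3 labelled PBS, a set picked after its values were seen. The whole progenitor list did not follow them: its summed level was lowest of the group in replicate 2 labelled CpG-STAT3dODN, at 278 RPKM, and was 516 in replicate 3 labelled PBS, between the others of that group. The 8 mast cell and basophil markers summed to 1065 to 3435 RPKM in the CpG-STAT3dODN-labelled libraries, 2189 to 3962 in the CpG-scrODN-labelled ones and 779 to 2457 in the PBS-labelled ones. Of these, Tpsb2 was at 0 in all 8 libraries labelled CpG-STAT3dODN or CpG-scrODN. The sums hide opposite directions. Between the CpG-scrODN-labelled and PBS-labelled libraries 7 of the markers were tested, with 5 positive and 2 negative differences. The 2 negative ones were called, and 0 of the positive ones, where 4.15% of all genes were called. The mast cell and basophil sum was highest of the group in replicate 2 labelled CpG-STAT3dODN and replicate 3 labelled PBS, at 3435 and 2457 RPKM. So was that of the 3 tested megakaryocyte markers, at 557 and 385 RPKM. The erythroid sum was lowest of the group in both, at 479.6 and 458 RPKM. These lists were picked after their values were seen. The part of cell composition in the Pim values was not tested.

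**Figure D3:**
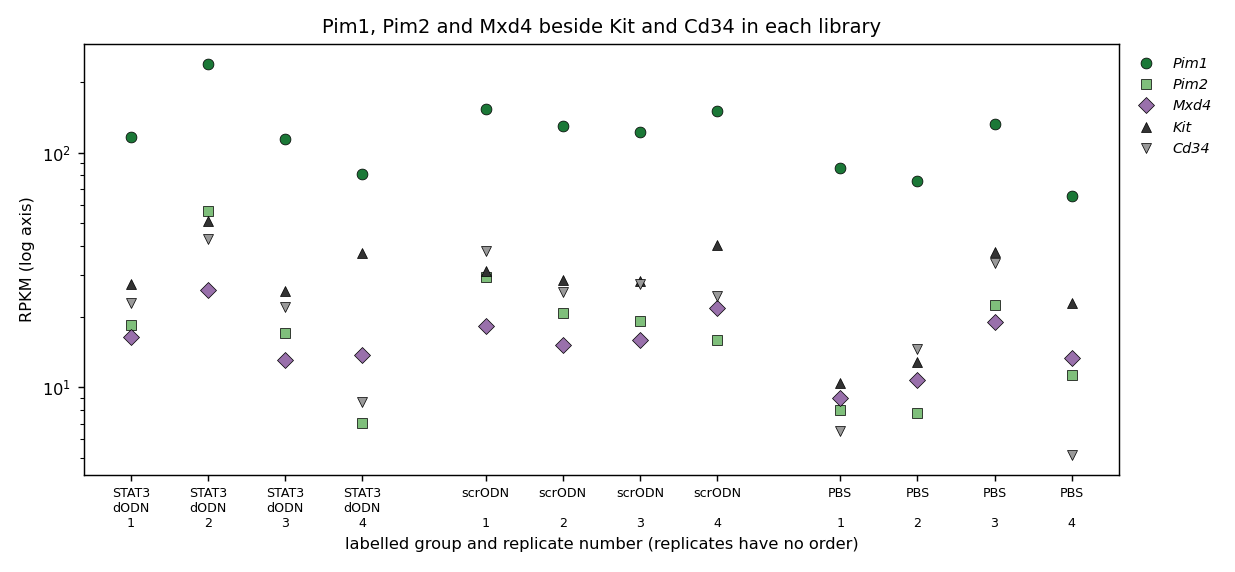
RPKM (y axis, log scale) of Pim1, Pim2 and Mxd4 with Kit and Cd34 in each of the 12 libraries by labelled group (x axis); replicates have no order. All 5 genes peak within their group in replicate 2 labelled CpG-STAT3dODN, where Pim1 is at 239.8, and in replicate 3 labelled PBS, where Pim1 is at 132. The 11 progenitor markers summed are lowest of the group in the first of these, at 278. The summed mast cell and basophil markers are highest of the group in both, at 3435 and 2457.

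In the 3 comparisons together, limma called 0 of the 7 tested genes. Between the CpG-STAT3dODN-labelled and PBS-labelled libraries, 0 of the 7 passed, also at an unadjusted p under 0.05, while 1.86% of all 10886 genes were called. Between the CpG-scrODN-labelled and PBS-labelled ones, 0 passed and 2 were under 0.05 unadjusted, Mxd1 and Pim1, while 4.15% of all genes were called. Between the CpG-STAT3dODN-labelled and CpG-scrODN-labelled ones, 0 passed and 2 were under 0.05 unadjusted, Myc and Mxd1, while 0.0% of all genes were called, that is 0 genes, with 295 at an unadjusted p under 0.05. Pim2 had the widest 95% intervals, from -0.26 to 1.93 for the CpG-scrODN-labelled libraries against PBS, so differences of that size could not be told from 0 with this spread between libraries.

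**Figure D4:**
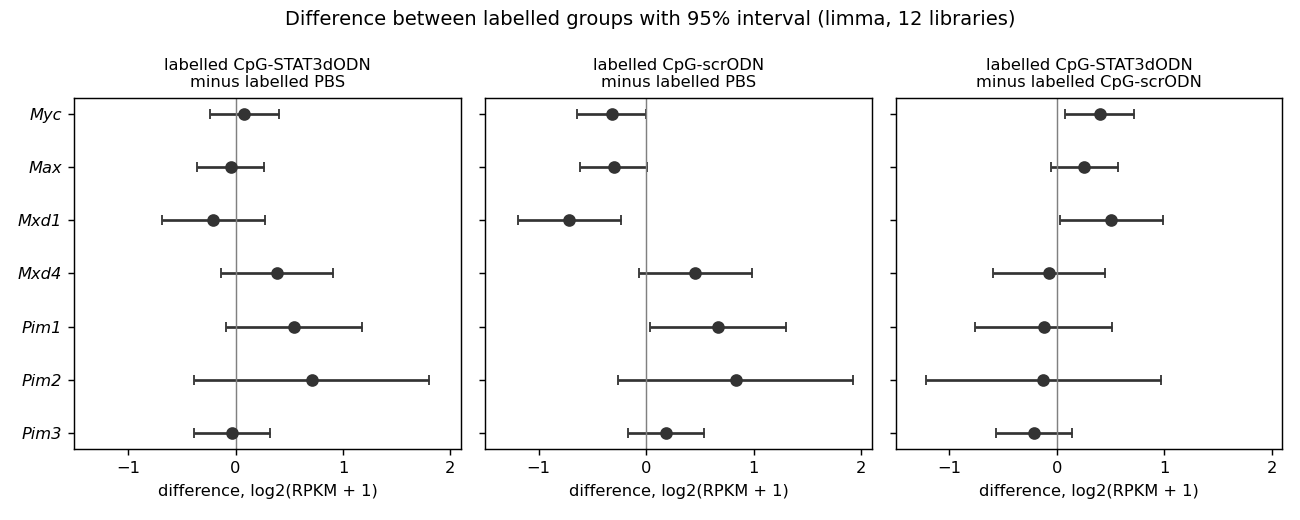
Difference between labelled groups on the log2(RPKM + 1) scale (x axes) for the 7 tested genes (y axis), with 95% intervals from the limma model of 12 libraries; the vertical line marks 0. The interval of Mxd1 lies below 0 for CpG-scrODN against PBS, that of Pim1 above it, and those of Myc and Mxd1 above 0 for CpG-STAT3dODN against CpG-scrODN, none of them adjusted for the number of genes.

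The calls depended on how the libraries were weighted. With limma's library quality weights, which ran from 0.112 for replicate 4 labelled CpG-STAT3dODN to 10.6 for replicate 1 of the same label, 6 of the 7 genes passed between the CpG-scrODN-labelled and PBS-labelled libraries. Myc fell by 0.44, Max by 0.25 and Mxd1 by 0.80, while Mxd4 rose by 0.54, Pim1 by 0.61 and Pim2 by 1.12 on the log2 scale, with limma adjusted p from 0.0133 to 0.0422. The same weights called 16.6% of all genes in that comparison. Between the CpG-STAT3dODN-labelled and PBS-labelled libraries they called 2 of 7, Mxd4 at 0.56 and Pim2 at 0.99 (limma adjusted p = 0.0450 and 0.0401), and 11.5% of all genes. With weights estimated gene by gene, neither passed in that comparison (limma adjusted p = 0.0917 and 0.0629). Between the CpG-STAT3dODN-labelled and CpG-scrODN-labelled ones the library quality weights called Myc alone, higher by 0.52 (limma adjusted p = 0.00250), and 5.58% of all genes. The estimate of these weights stopped before its tolerance. Weights estimated gene by gene also called Myc there, and 1.19% of all genes. Leaving out the low-Fos pair called 0 of the 7 in each comparison, with Myc at -0.44 between the CpG-scrODN-labelled and PBS-labelled libraries (limma adjusted p = 0.0750).

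Other genes of the same pathways came from lists assembled with earlier results of these data known. The Myc network list, of other Max partners and regulators of Myc, had 22 of 23 genes tested. Between the CpG-scrODN-labelled and PBS-labelled libraries, the list median was -0.06 against -0.05 over all genes. Of the list, 1 gene fell and 0 rose, where 4.15% of all genes were called. It was Mxd3, a Max partner linked to cycling cells, at 4.70 ± 0.655 RPKM in the CpG-scrODN-labelled libraries against 7.87 ± 1.29 in the PBS-labelled ones (SD, n = 4 each), a difference of -0.63 (limma adjusted p = 0.0461). That call was lost in 14 of 23 alternatives, among them leaving out any 1 library labelled CpG-scrODN, replicate 1 labelled CpG-STAT3dODN or replicate 1, 2 or 4 labelled PBS. In the CpG-STAT3dODN-labelled libraries, 0 of 22 passed against PBS, where the median was -0.07 against -0.01 over all genes. Against CpG-scrODN 0 of 22 passed, with a median of 0.03 in the list and 0.03 over all genes. Here Fbxw7, part of the ubiquitin ligase that degrades Myc, was at 8.18 ± 5.97 RPKM in the CpG-STAT3dODN-labelled libraries and 4.93 ± 0.728 in the CpG-scrODN-labelled ones. Skp2, another ligase subunit, was at 3.55 ± 0.830 RPKM in the CpG-STAT3dODN-labelled libraries and 2.76 ± 0.453 in the CpG-scrODN-labelled ones (SD, n = 4 each).

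Myc target genes, 34 of 34 tested, gave 0 calls in each of the 3 comparisons. Their medians were -0.06 for CpG-STAT3dODN against PBS, -0.03 for CpG-scrODN against PBS and -0.03 for CpG-STAT3dODN against CpG-scrODN, beside -0.01, -0.05 and 0.03 over all genes. Negative differences were found for 31 of the 34 between the CpG-STAT3dODN-labelled and PBS-labelled libraries, where 53.7% of all genes were negative, and for 31 with quantile normalization and 28 with size factors, where 42.7% and 47.3% were. Between the CpG-scrODN-labelled and PBS-labelled ones 20 were negative, where 59.9% of all genes were. With quantile normalization 19 were, where 44.1% of all genes were, and with size factors 13, where 49.6% were. The CpG-STAT3dODN-labelled libraries had 24 negative differences from the CpG-scrODN-labelled ones, where 40.0% of all genes were, and 27 and 26 with quantile normalization and size factors, where 51.9% and 49.1% were. The summed level of the targets was 3021 to 4035 RPKM in the CpG-STAT3dODN-labelled libraries, 3289 to 3986 in the CpG-scrODN-labelled ones and 3234 to 4310 in the PBS-labelled ones. The erythroid markers, 11 of 12 in the files and none at 0 in a whole group, summed to 479.6 to 4308, 761 to 1652 and 458 to 9738 RPKM in the CpG-STAT3dODN-labelled, CpG-scrODN-labelled and PBS-labelled libraries. Both sums were lowest of the group in replicate 2 labelled CpG-STAT3dODN and replicate 4 labelled CpG-scrODN. Both were highest of the group in replicate 3 labelled CpG-STAT3dODN and replicate 1 labelled PBS. The other extremes differed. The lowest library labelled PBS was replicate 4 for the targets and replicate 3 for the erythroid markers. The highest labelled CpG-scrODN was replicate 2 for the targets and replicate 1 for the erythroid markers. These matches were described after the values were seen. Against PBS, 8 of the 11 erythroid differences were negative for each label and 0 were called, and the part of erythroid cells in the target values was not tested. The 2 furthest from 0 were Tfrc, the transferrin receptor, and Shmt2, a mitochondrial enzyme of one-carbon metabolism. Tfrc was at 40.0 ± 14.7 RPKM in the CpG-STAT3dODN-labelled libraries, 32.8 ± 4.47 in the CpG-scrODN-labelled ones and 49.7 ± 26.6 in the PBS-labelled ones (SD, n = 4 each). Shmt2 was at 150.3 ± 54.4 RPKM in the CpG-STAT3dODN-labelled libraries, 121 ± 13.8 in the CpG-scrODN-labelled ones and 174 ± 57.0 in the PBS-labelled ones (SD, n = 4 each). No limma adjusted p of either gene was under 0.424.

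Pim substrates and their neighbours in translation and the cell cycle, 18 of 18 tested, had 1 gene that rose and 1 that fell. Both were called between the CpG-scrODN-labelled and PBS-labelled libraries, where 4.15% of all genes were. Cdkn1a, the cell cycle inhibitor p21, was at 51.2 ± 2.42 RPKM in the CpG-scrODN-labelled libraries against 38.6 ± 5.74 in the PBS-labelled ones (SD, n = 4 each), a difference of 0.41 (limma adjusted p = 0.0427). Cxcr4, the chemokine receptor that retains blood cells in marrow, was at 3.90 ± 1.47 RPKM in the CpG-scrODN-labelled libraries against 18.1 ± 14.1 in the PBS-labelled ones, a difference of -1.77 (limma adjusted p = 0.0404). The Cdkn1a call was lost without any 1 library labelled CpG-scrODN, replicate 1 or 2 labelled CpG-STAT3dODN or replicate 1, 3 or 4 labelled PBS. It was also lost with the replicate number as a block (limma adjusted p = 0.0538), without the 3 libraries numbered 4 (0.124), without the low-Fos pair (0.0644), in a fit of those 2 groups only (0.0777) and at an RPKM of 5 or more (0.0755). The Cxcr4 call was lost without replicate 2, 3 or 4 labelled CpG-scrODN, replicate 1 or 3 labelled CpG-STAT3dODN or replicate 2 or 4 labelled PBS. It was also lost with quantile normalization (limma adjusted p = 0.0563), in a fit of those 2 groups only (0.0521), with no filter (0.0713) and at an RPKM of 5 or more (0.0702). Cxcr4 is also a B-cell gene, and it was not tested how much of it came with the B-cell markers given above. The list medians were -0.02, -0.03 and -0.04 for CpG-STAT3dODN against PBS, CpG-scrODN against PBS and CpG-STAT3dODN against CpG-scrODN, with 0 calls between the CpG-STAT3dODN-labelled libraries and either other group. Eif4ebp1, a brake on translation that Pim kinases act on, was at 76.4 ± 57.7 RPKM in the CpG-STAT3dODN-labelled libraries and 46.7 ± 6.61 in the CpG-scrODN-labelled ones. Foxo1, a transcription factor, was at 2.20 ± 0.582 RPKM in the CpG-STAT3dODN-labelled libraries and 4.42 ± 2.60 in the PBS-labelled ones (SD, n = 4 each).

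Other STAT target genes had 23 of 25 tested. Against PBS, 1 fell and 0 rose in the CpG-STAT3dODN-labelled libraries, and 2 fell and 0 rose in the CpG-scrODN-labelled ones. Over all genes 1.86% and 4.15% were called in these 2 comparisons, which share the PBS libraries. Cebpd, a transcription factor of acute phase and myeloid responses, was at 1.72 ± 0.344 RPKM in the CpG-STAT3dODN-labelled libraries, 1.07 ± 0.269 in the CpG-scrODN-labelled ones and 3.34 ± 0.686 in the PBS-labelled ones (SD, n = 4 each). Its difference from PBS was -0.67 in the CpG-STAT3dODN-labelled libraries (limma adjusted p = 0.0354) and -1.07 in the CpG-scrODN-labelled ones (limma adjusted p = 0.00113). The first call was lost in 16 of 22 alternatives, 9 of them without a single library, namely replicate 1, 2 or 4 labelled CpG-STAT3dODN, replicate 1, 2 or 3 labelled CpG-scrODN or replicate 1, 2 or 4 labelled PBS. Bcl6, a repressor of germinal centre B cells, was at 0.499 ± 0.181 RPKM in the CpG-scrODN-labelled libraries and 2.27 ± 1.20 in the PBS-labelled ones, a difference of -1.07 (limma adjusted p = 0.0120). The B-cell markers given above were lower in the same libraries, and their part in the Bcl6 value was not tested. Between the CpG-STAT3dODN-labelled and CpG-scrODN-labelled libraries, 0 of 23 passed. Junb, an AP-1 factor, was furthest from 0 there, at 129 ± 42.0 RPKM in the CpG-STAT3dODN-labelled libraries against 271 ± 56.1 in the CpG-scrODN-labelled ones (SD, n = 4 each), with a limma p of 0.00177 unadjusted and 0.960 adjusted. Junb is also in the immediate-early list, where 17 of 20 tested genes had negative differences in that comparison, against 40.0% of all genes. The immediate-early median was -1.08 beside -1.09 for Junb, and 0 were called. The part of this list in the Junb value was not tested. Bcl3, a modulator of NF-kappaB, was at 5.84 ± 3.82 RPKM in the CpG-STAT3dODN-labelled libraries and 2.61 ± 0.583 in the CpG-scrODN-labelled ones. The list median was -0.01 for CpG-STAT3dODN against PBS, -0.02 for CpG-scrODN against PBS and 0.006 for CpG-STAT3dODN against CpG-scrODN. The calls in all 4 lists also depended on the weights. With library quality weights, 5, 10 and 5 STAT targets were called in these comparisons, beside 11.5%, 16.6% and 5.58% of all genes. The same weights called 2, 1 and 0 genes of the Myc network list, 1, 0 and 0 Myc targets and 1, 3 and 1 Pim substrates.

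**Figure D5:**
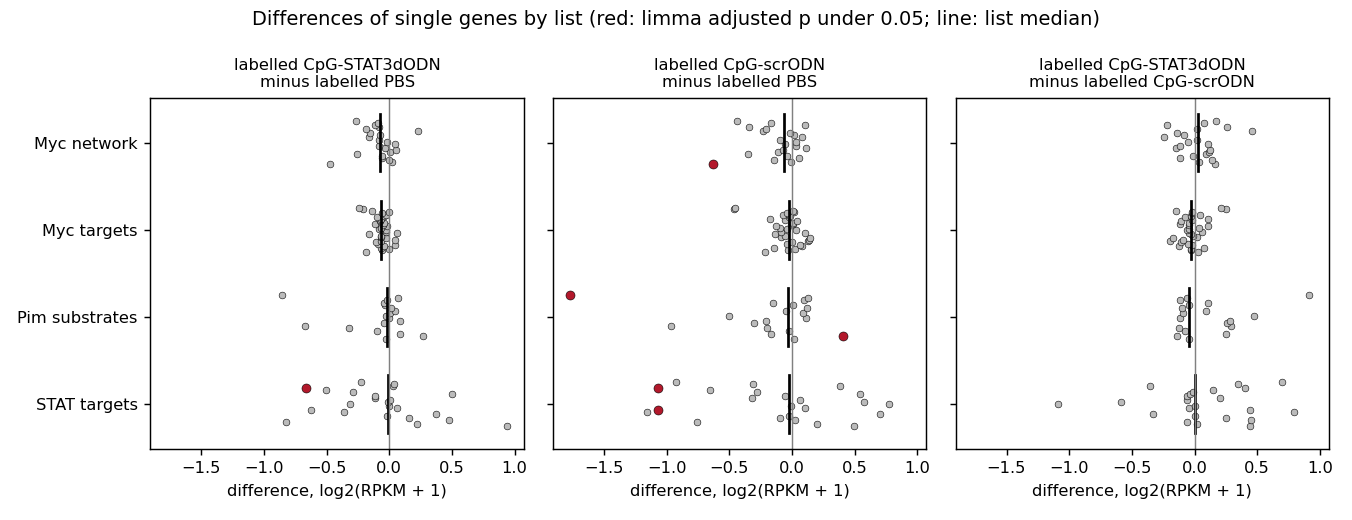
Difference on the log2(RPKM + 1) scale (x axes) of each tested gene in the Myc network, Myc target, Pim substrate and STAT target lists (y axis) for the 3 comparisons, with red points for genes at a limma adjusted p under 0.05 and a black line at each list's median. None of the 34 Myc targets is red, with Shmt2 and Tfrc furthest out at -0.46 and -0.45 in the middle panel, and the red points are Cebpd at -0.67 in the left panel and Mxd3, Cxcr4, Cdkn1a, Cebpd and Bcl6 in the middle one.

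The genes whose centred log2 profile over the 12 libraries lay nearest to each tested gene were found by root mean square distance, as a description. Nearest to Myc were Fbxl14, an F-box gene, and Snhg12, a small nucleolar RNA host gene, at distances of 0.159 and 0.162 against an SD of 0.269 for Myc itself. Max had the closest neighbours, Hiat1 and the centromere gene Mis18a, at 0.0445 and 0.0472 with an SD of 0.237. Mxd1 was nearest to Tlcd1 and to Ccne2, an E-type cyclin, both at 0.161 with an SD of 0.439. Mxd4 lay nearest to Fbxl20 and Sfxn3, at 0.124 and 0.129 with an SD of 0.398. For Pim1 they were the kinase gene Tlk2 and the calpain gene Capn11, at 0.121 and 0.142 with an SD of 0.516. Pim2 had the most distant ones, Neb and the Fc receptor gene Fcgr3, at 0.209 and 0.251, with an SD of 0.819. Pim3 was nearest to Yrdc and the nuclear receptor gene Nr2f6, at 0.109 and 0.121 with an SD of 0.242. No tested member was among the 2 nearest genes of another.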

How the data were processed

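RPKM values of 12 libraries were used as the authors deposited them, under that unit's name. The submitters' processing notes list TopHat 1.3.1, Partek 6.12.0713 and the build mm10 but no role for them; annotation, strand setting and filters: not given in the sources used here. Groups came from the sample labels, which the column headers contradict in all 12 files. Depth was estimated from the RPKM that 1 read is worth in single-transcript genes. Of low values, 63.1% to 68.5% were whole reads within 0.05 read, too few for a count test.

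Deposited RPKM values were analysed as log2(RPKM + 1), which understates changes of low genes. The filter required 1 RPKM or more in 4 or more of the 12 libraries and kept 10886 of 24310 features. One limma 3.58.1 model with an intensity trend (R 4.3.3) held the 3 labelled groups. Benjamini-Hochberg adjusted p-values cover all kept genes, two-sided, called under 0.05; 95% intervals are unadjusted. The model was tested on simulated data. As nothing says that libraries came from separate mice, p-values reflect the spread between these libraries, possibly technical. No pair of libraries held identical values.

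The 9 genes and all lists were chosen with earlier results of these data known. Named genes were the 9, up to 4 called genes per pathway list and comparison with the largest difference (otherwise 2), the 2 nearest genes of each tested gene, and Fos, Kit, Stat3, Irf8, Cd79a and Ms4a1 as checks. Mpo, Cd34 and Tpsb2 come from the marker lists and were singled out after their values were seen. Hspa1a was not among those checks and was added outside these rules. Irf8, with differences from PBS of -2.02 (CpG-STAT3dODN) and -2.53 (CpG-scrODN) on the log2 scale, was called in both comparisons; Cd79a was at 7.27 to 30.4, 2.35 to 7.80 and 45.0 to 187 RPKM and Ms4a1 at 2.22 to 4.23, 0.813 to 2.22 and 22.1 to 49.3 RPKM in the libraries labelled CpG-STAT3dODN, CpG-scrODN and PBS. Alternatives changed the pseudocount, filter, normalization, samples, replicate block, library weights and libraries. Positions and promoters are from RefSeq for GRCm38.p6, which mm10 denotes.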

Additional observations from a re-analysis of the deposited data

Results flagged for a closer look

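Mycn in replicate 2 labelled CpG-STAT3dODN, at 0.0106 RPKM, stood apart from the other 3 libraries of its group, which were all listed at 0. The value equals 1 read. The test, Dixon's gap over range, flags about 1 in 20 groups by chance, a rate that does not hold here. With the other 3 libraries at 0, gap over range is 1 for any value above 0. The flag was thus fixed by the zeros and tells nothing more about this library.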

How the results depend on the processing

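Of 483 values of the 7 tested genes under the alternatives, 448 kept their direction and their side of the threshold, 16 newly passed and 19 changed sign, all from differences of at most 0.125. Newly passing values came from library weights only: 2, 6 and 1 genes were called for CpG-STAT3dODN against PBS, CpG-scrODN against PBS and CpG-STAT3dODN against CpG-scrODN, and 0, 6 and 1 with weights estimated gene by gene, added after seeing the data because the planned estimate stopped before its tolerance. The cause was not tested.

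Genes called among all genes were 202, 452 and 0 in the same comparisons. With library weights they were 1248, 1812 and 607, and gene by gene 840, 1756 and 129. At an RPKM of 5 or more they were 76 and 163 against PBS. In fits of 2 groups only, 78 were called for CpG-STAT3dODN against PBS and 1 for CpG-STAT3dODN against CpG-scrODN. Without the low-Fos pair, 337 and 686 were called against PBS, and without the 3 libraries numbered 4, 392 for CpG-STAT3dODN. Leaving out single libraries gave 121 to 218, 279 to 560 and 0 to 0 genes, with 121 without replicate 2 labelled CpG-STAT3dODN, 131 without replicate 1 labelled PBS and 279 without replicate 3 labelled CpG-scrODN. Quantile normalization gave 75 higher and 318 lower genes for CpG-scrODN against PBS, where the main split was 12 and 440.

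Changed signs for CpG-STAT3dODN against PBS included Pim3, at 0.0074 with quantile normalization. Without single libraries, Pim3 ran from -0.155 to 0.120, Myc from -0.043 to 0.199, Max from -0.176 to 0.068 and Tfrc from -0.522 to 0.073. For CpG-STAT3dODN against CpG-scrODN, Mxd4 was at 0.016, Tfrc at -0.103 and Eif4ebp1 at -0.023 with library weights, and without single libraries Mxd4 ran from -0.275 to 0.037, Pim1 from -0.428 to 0.089 and Pim2 from -0.631 to 0.315. Without the low-Fos pair, Mxd4 was at 0.014, Pim1 at 0.089 and Pim2 at 0.315. Without the 3 libraries numbered 4, Mxd4 was at 0.114, Pim1 at 0.130, Pim2 at 0.194, Shmt2 at -0.030, Tfrc at -0.012 and Eif4ebp1 at -0.053.

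With the replicate number as a block, 213, 523 and 0 genes and 0 of the 7 were called. The numbers did not pair the libraries throughout: correlations of same-numbered deviations ran from -0.341 to 0.817 and 5 of 12 pairs exceeded 0.1, among them all 3 pairs numbered 4, at 0.151 to 0.817. Depth limits Mycn, at 0 to 4 reads, and Mycl most.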
